A study of Drosophila melanogaster with 4 samples.

Results

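The clusters described here are the regions of HP1a enrichment on the left arm of chromosome 3 of Drosophila melanogaster, outside its pericentric end. A cluster was taken when the authors' combined set named it as enriched, placed it on 3L and had its midpoint at or below position 22543557 on FlyBase r5, which is 2 Mb from the proximal end of the arm sequence. The rule gave 619 of the 5583 combined-set clusters, and the clusters of each ChIP replicate in the same stretch were set beside them, 276 in replicate 1 and 334 in replicate 2. The chromatin came from head nuclei of mixed adult flies of the wild-type strain Oregon-R, raised together in population cages, and was precipitated with the antibody wa191 against HP1a. The series has 2 ChIP libraries and 2 input libraries, with 1 input for each ChIP, and every library shares the strain, stage and tissue, so there is no second condition. Heads pool neurons, glia, photoreceptors and other cells of many flies, and the lists give 1 average over them. The head label was not checked against marker genes, because a list of binding regions holds no expression values.

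HP1a is the chromodomain protein, encoded by Su(var)205, that binds histone H3 methylated at lysine 9 and is concentrated in pericentric heterochromatin, on chromosome 4 and at telomeres. Its binding recruits the methyltransferase that makes the same mark, and through this loop HP1a can spread along chromatin and repress genes placed beside it. On the euchromatic arms of flies it is also known from scattered sites, among them repeat-rich stretches and the bodies of some active genes. Regions are given here by position on r5, without gene names or sequences, since a genome and annotation of that build were not used here.

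Distal 3L was thinly covered, and its clusters were mostly short and low in score. Replicate 1 covered 3.18% and replicate 2 covered 3.76% of its 22.5 Mb, which gives 3.47% ± 0.407 on average (SD, n = 2). In bases this was 718 kb in replicate 1 and 847 kb in replicate 2, of which 517 kb were shared, and the Jaccard index of the replicates (shared bases over all covered bases) was 0.49. The median length was 2017.5 bp in replicate 1, 1975.5 bp in replicate 2 and 1805 bp in the combined set, which covered 1.51 Mb. The middle 50% of combined-set lengths ran from 1321 to 2684 bp. The score is the authors' own measure of enrichment for each region, on a scale that the sources used here do not give. Whether the 3 lists share that scale is unknown, so differences in score between lists are descriptions only. Its median was 0.67 in both replicates and 0.47 in the combined set, with the middle 50% of the combined scores between 0.40 and 0.57. Of the 619 clusters, 495 scored below 0.62, the median of the whole combined set, which includes clusters outside the distal arms. The combined-set median scores of the other distal arms were 0.49 on 2L, 0.47 on 2R and on 3R and 0.60 on X. Their median lengths were 1902, 1864, 1883 and 2007 bp. Low scores and short lengths were thus shared with the other distal autosomal arms. The lists hold no read counts, so the depth of the libraries is unknown.

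Support from the replicates was graded by bases. Of the 619 clusters, 153 were covered to at least 50% in each replicate, which is 24.7% (95% Wilson interval 21.5% to 28.3%, for counting error only, and neighbouring clusters are not independent). These are called clusters held by both replicates. The same rule called 28.2% of the 3559 combined-set clusters on all 5 distal arms together, 3L included. The 3L share was lower than this background, and the difference was not tested. Counting any shared base, 185 clusters met both replicates (29.9%, against 33.4% on all distal arms). Among these, 32 clusters met both replicates but fell under 50% in at least 1 (5.17% of the clusters on all distal arms and 5.17% on 3L). Replicate 1 alone met 66 (10.7%, against 8.12% on all distal arms) and replicate 2 alone met 115 (18.6%, against 20.7%). The remaining 253 met neither (40.9%, against 37.8%). The combined set was made from these libraries, so its overlap with the replicate lists is not independent support. In bases, both replicates covered 34.2% of the combined set on distal 3L, a single replicate covered a further 32.8%, and 33.0% lay outside both lists.

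Length separated these grades. None of the 147 clusters shorter than 1301 bp, the shortest length in either replicate list, was held by both replicates, and 128 of them met neither. The combined set went down to 1001 bp, so this class could only be met by replicate clusters longer than its own. Its low share is therefore not read as a result. Among clusters from that length to 2 kb, 17 of 227 were held by both. The share was higher in each longer class, with 75 of 161 from 2 to 4 kb (46.6%), 53 of 74 from 4 kb to under 10 kb (71.6%) and 8 of 10 at 10 kb or more (80%). No cluster above 4 kb was missed by both replicates. The 153 clusters held by both had a median length of 3233 bp and a median score of 0.63, whereas the 253 that met neither had medians of 1293 bp and 0.45. The longest cluster that met neither ran from 15215142 to 15218716 (3575 bp, score 0.45), followed by those at 1324614 to 1327398 (2785 bp, score 0.39) and 17873164 to 17875824 (2661 bp, score 0.38). On the other 4 distal arms the same classes of length gave 0 of 651, 66 of 911, 492 of 970, 245 of 355 and 49 of 53 when pooled. Taken singly, 2L, 2R and X kept this order of shares, while 3R had 38 of 51 from 4 kb to under 10 kb and 1 of 3 at 10 kb or more.

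**Figure D1:**
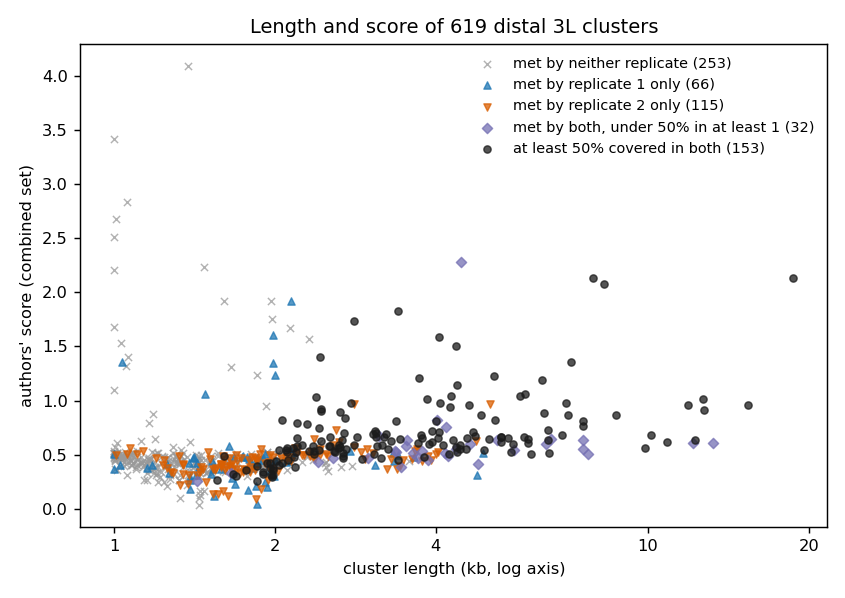
Length (kb, log axis) against the authors' score for the 619 combined-set clusters of distal 3L, 1 point for each cluster, marked by which replicates met it. The clusters held by both replicates lie to the right, from 1561 to 18729 bp, and the highest scores, up to 4.09, belong to short clusters that neither replicate met.

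Across the 153 held by both replicates, Spearman's rho of length and score was 0.60 and Pearson's r was 0.46. Across the 253 that met neither, rho was -0.24 and r was -0.04. Both are descriptions across regions that share the same libraries. Of the 35 clusters with a score above 1.2, 11 were at least 2500 bp long and 24 were shorter. Of the 11 long ones, 10 were held by both replicates and the other met both. Of the 24 short ones, 1 was held by both, 18 met neither replicate, 5 met replicate 1 only and 0 met replicate 2 only. Together, 11 of the 35 were held by both (31.4%) and 18 met neither (51.4%), whereas 57.8% and 36.8% of the 185 clusters above this score on all distal arms did. The other arms ranged from 11 of 29 held by both on 3R to 41 of 48 on X, and the difference was not tested. Replicate 1 alone met 5 of the 35 on 3L, against 1 of 150 on the other 4 distal arms pooled. Replicate 2 alone met 0 of the 35 and 2 of the 150. These differences were not tested either. Of the 82 clusters on all distal arms that were both above 1.2 and under 2500 bp, 9.76% were held by both and 81.7% met neither, so the shares on 3L (1 of 24 and 18 of 24) lay near that background.

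The 5 highest scores on distal 3L all belonged to short clusters that met neither replicate. They lay at 12916300 to 12917674 (1375 bp, score 4.09), 6214544 to 6215544 (1001 bp, score 3.42), 11606412 to 11607470 (1059 bp, score 2.83), 28258 to 29264 (1007 bp, score 2.68) and 404170 to 405170 (1001 bp, score 2.51). The ones at 1424862 to 1426338 (1477 bp, score 2.23) and 21492562 to 21493562 (1001 bp, score 2.21) were of the same kind. All 7 had scores that recurred, equal to 9 decimals, in other clusters of the combined set: the score of the outermost one, at 28258, was carried by 17 clusters, and that of the one at 12916300 by 4. Of the 24 short high-scored clusters, 20 had such a recurring score, against 168 of all 619. Of the 17 clusters with the score at 28258, 1 lay on distal 3L, so such scores were not particular to this arm. The share of recurring scores over the whole combined set is not given here. The score of 2.68 at 28258 and the score of 1.68 at 21145064 to 21146064 differed by 1.00. No replicate list gives a score for any of these 7.

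The 5 short high-scored clusters that met replicate 1 only all scored above 1.5 in that replicate. At 22096948 to 22098934 the score was 1.61 in the combined set and 2.25 in replicate 1, the second highest of its 276 clusters on distal 3L. At 5112664 to 5114804 it was 1.92 in the combined set and 2.02 in replicate 1. The ones at 19818720, 21369530 and 20326394 scored 1.88, 1.63 and 1.58 in replicate 1. Replicate 2 had no cluster in any of these 5, and the reason was not tested. The combined scores at 22096948, 5112664, 19818720 and 20326394 recurred in other clusters of the combined set. That at 5112664 was also carried by the clusters at 16519440 and 17724034, which met neither replicate.

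The cluster near the tip was the longest on distal 3L in all 3 lists. It ran from 51096 to 69824 in the combined set (18.7 kb, score 2.14), from 51548 to 69447 in replicate 1 (17.9 kb, score 2.06) and from 51562 to 69474 in replicate 2 (17.9 kb, score 2.23). The replicates placed its distal border 14 bp apart and its proximal border 27 bp apart, and each replicate cluster was covered to more than 99% by the other (99.9% and 99.8%). Both lists gave it as 1 unbroken cluster. It ranked 1 in length and 5 in score among the 276 clusters of replicate 1, and 1 in length and 2 in score among the 334 of replicate 2. The next longest clusters had 12329 bp in replicate 1 and 14314 bp in replicate 2.

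This cluster had gaps on both sides above the median gap of distal 3L, 12.8 kb. That was not particular to it, since the cluster at 5451240 had gaps of 221 and 125 kb. On the distal side of the tip cluster, 21.8 kb separated it from the 1007 bp cluster at 28258, which neither replicate had. The arm sequence distal to 28258 held no cluster in any list. On its proximal side the next cluster began 76.2 kb away, at 146056. The outermost 50 kb of 3L therefore held no replicate cluster, the outermost 100 kb were covered to 17.9% in both replicates, all by this cluster, and the outermost 200 kb to 13.0% and 13.1%. It held 2.49% of the covered bases of distal 3L in replicate 1 and 2.11% in replicate 2. The outermost 100 kb of 2L were covered to 7.58% and 9.55%, those of X to 28.4% and 32.8%, those of 3R to 2.16% and 0%, and those of 2R to 0% in both. Each tip is a single stretch, so these values stand side by side without a test.

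**Figure D2:**
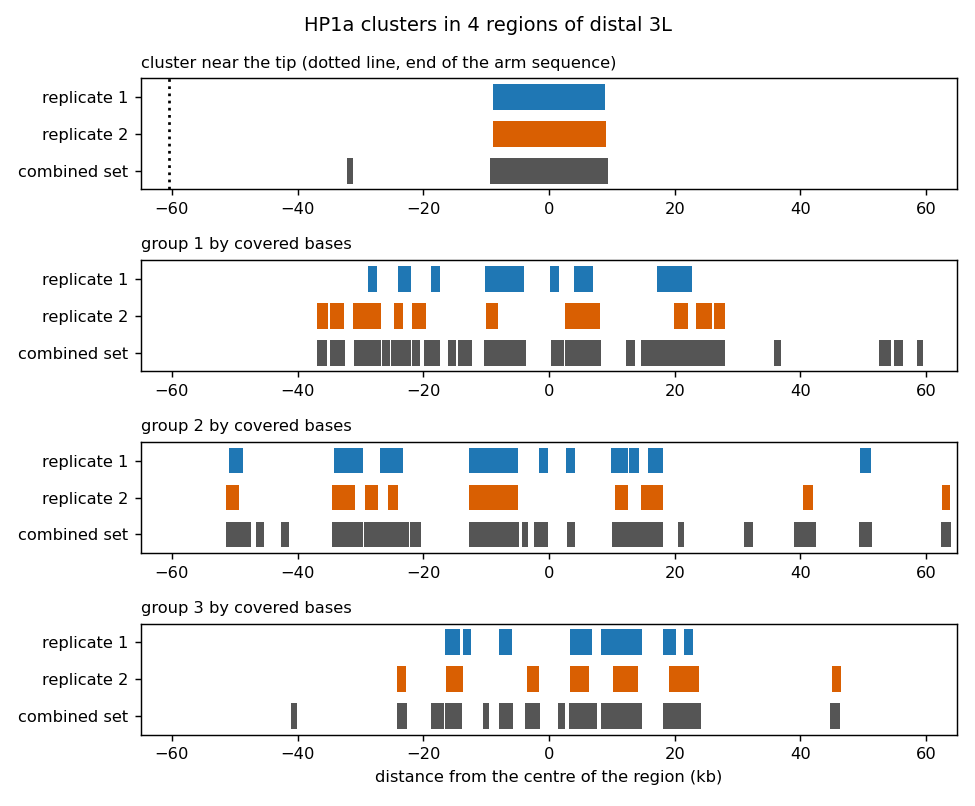
Clusters of replicate 1, replicate 2 and the combined set in 4 regions of distal 3L, drawn as bars against the distance from the centre of each region (kb). The cluster near the tip is a single block with matching borders in all 3 lists, while the groups ranked 1 to 3 by covered bases are broken into 7 to 11, 8 to 10 and 6 to 7 clusters in the replicates, placed differently in each. Other single clusters, not drawn here, had Jaccard indices of up to 0.99.

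Other long clusters had lower scores. The second longest, at 2237462 to 2252826 (15.4 kb), scored 0.96 in the combined set, 0.95 in replicate 1 and 1.04 in replicate 2, and was covered to 93.6% and 92.8%. The cluster at 7649072 to 7661814 (12.7 kb) scored 0.91, 0.96 and 1.03 and was covered to 96.8% and 85.2%. The cluster at 1759214 to 1771868 (12.7 kb) scored 1.02, 0.96 and 1.12 and was covered to 83.8% and 98.6%. These 3 were nearly filled in both replicates, as was the cluster at 20351596 to 20363482 (11.9 kb), with scores of 0.95, 1.00 and 0.98 and coverage of 93.6% and 97.0%. The cluster at 12766818 to 12776932 (10.1 kb) was also filled, to 91.1% and 97.9%, at scores of 0.68, 0.74 and 0.72.

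The other 4 clusters of 10 kb or more were patchier. The clusters at 19293702 to 19305954 (12.3 kb, 53.3% and 76.6%) and 6194230 to 6205098 (10.9 kb, 60.0% and 57.5%) were held by both replicates. Those at 2093666 to 2106922 (13.3 kb, 42.4% and 49.4%) and 1229502 to 1241652 (12.2 kb, 37.2% and 40.9%) met both but fell under 50% in each. All 4 scored between 0.61 and 0.64 in the combined set, below the filled ones. On all distal arms together, 1.77% of combined-set clusters were 10 kb or longer, against 1.62% on 3L. Those that were also held by both made up 1.6% on all distal arms and 1.29% on 3L.

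Compact clusters came next to the tip cluster in score among those held by both replicates. The cluster at 20469898 to 20477802 (7905 bp) scored 2.13 in the combined set and 2.15 in both replicates, and was covered to 99.4% and 98.5%. The cluster at 5451240 to 5459516 (8277 bp) scored 2.08 in the combined set, 2.36 in replicate 1, the highest score of that list on distal 3L, and 2.07 in replicate 2. It was covered to 70.1% and 68.8%, so its edges were not in the replicate lists. The cluster nearest to the pericentric side among the 10 highest-scored that were held by both lay at 22092744 to 22096142 (3399 bp) and scored 1.82, 1.82 and 1.83. At 14042410 to 14045224 (2815 bp) the scores were 1.74, 1.73 and 1.77, and at 16080266 to 16084318 (4053 bp) they were 1.59, 1.63 and 1.58. In each of these 3 the replicates lay within 0.05 of each other and covered at least 94.9% of the cluster.

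In 4 others of the 10 the replicates lay further apart than in these 3. At 2585916 to 2588350 (2435 bp) the score was 1.40 in the combined set, 1.59 in replicate 1 and 1.23 in replicate 2. At 6957394 to 6961758 (4365 bp) it was 1.50, 1.43 and 1.61, and at 1241804 to 1248988 (7185 bp) it was 1.35, 1.29 and 1.49. At 7327686 to 7332832 (5147 bp) it was 1.22, 1.19 and 1.30. Replicate 1 was thus the higher at 2585916 and replicate 2 at the other positions.

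The highest score of replicate 2 on distal 3L, 2.73, came from a short group just past 5.1 Mb. There the combined cluster at 5106436 to 5110908 (4473 bp, score 2.28) was covered to 82.4% in replicate 2, by 2 clusters, but to 29.3% in replicate 1, by 1 cluster of 1311 bp with a score of 2.18. It lay between a cluster at 5103902 to 5105968 that both replicates held (scores 0.84 and 1.04) and the cluster at 5112664 that met replicate 1 only. Both replicates thus had high-scored clusters within these 10.9 kb and broke them at different places.

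Where both replicates had a cluster, their scores rose and fell together. Across the 185 combined clusters that met both, Spearman's rho of the replicate scores was 0.74 and Pearson's r was 0.90. Across the 153 held by both, rho was 0.78 and r was 0.91. These are descriptions across regions, whose scores share 2 libraries, and not tests. Among the 153, the lowest, median and highest scores were 0.20, 0.72 and 2.36 in replicate 1 and 0.32, 0.71 and 2.23 in replicate 2. Replicate 1 had the higher score in 77 clusters and replicate 2 in 76.

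**Figure D3:**
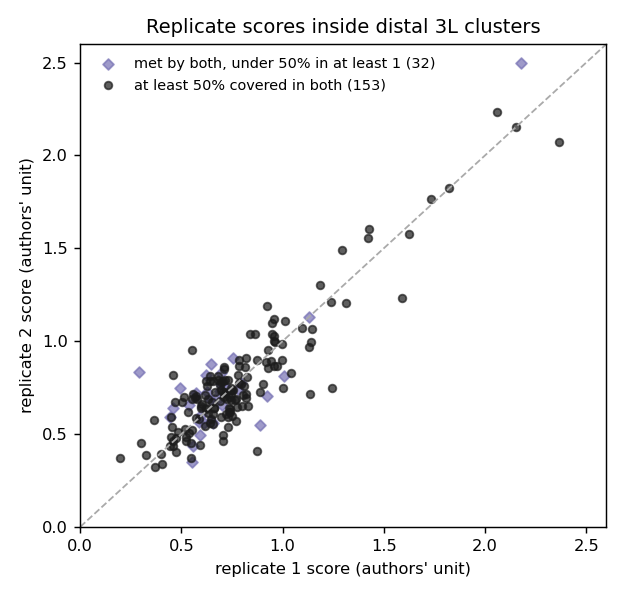
Scores of replicate 1 (x axis) and replicate 2 (y axis), in the authors' unit, inside the 185 combined-set clusters of distal 3L that met both. Each point is 1 cluster, given the base-weighted average of its replicate scores, and the dashed line marks equal scores. Most points lie between 0.3 and 1.2, and a few clusters reach above 1.5 in both replicates.

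Borders were closely placed in simple clusters. Of the 153 held by both, 122 corresponded to exactly 1 cluster in each replicate, and there the replicates differed by a median of 167.5 bp at the distal border and 160 bp at the proximal border. The combined cluster was longer than both replicate clusters in 105 of the 122. The remaining clusters were split in at least 1 list: replicate 1 had 2 clusters in 23 of the 153, and replicate 2 had 2 to 4 in 19. Replicate clusters rarely fell outside the combined set, 3 of 276 in replicate 1 and 4 of 334 in replicate 2. In replicate 1, 205 of 276 clusters (74.3%) touched a cluster of replicate 2, and in replicate 2, 207 of 334 (62.0%) touched a cluster of replicate 1. The share of replicate 1 was 76.4% on 2L, 79.8% on 3R, 81.3% on 2R and 83.4% on X, and that of replicate 2 was 71.6%, 61.1%, 67.0% and 56.5%.

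Along the arm, coverage rose and fell in the same places in both replicates. In the 22 full windows of 1 Mb, the lowest, median and highest coverage were 0.285%, 2.83% and 6.97% in replicate 1 and 0%, 3.41% and 7.49% in replicate 2. Spearman's rho between the replicates across these windows was 0.81 and Pearson's r was 0.95, given as a description. Replicate 2 was the higher in 17 of the 22 windows. Only 4 windows exceeded 5% in both replicates, and they held 34.7% of the covered bases of distal 3L in replicate 1 and 32.3% in replicate 2.

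These 4 windows were spread over the arm. The outermost 1 Mb was covered to 6.86% and 7.49%, the window starting at 20000001 to 6.97% and 7.05%, that starting at 16000001 to 5.85% and 7.27%, and that starting at 11000001 to 5.20% and 5.55%. The window at 16000001 had the most clusters held by both replicates, 15 of 38. The window at 20000001 had the most clusters of any kind, 55, of which 11 were held by both and 24 met neither. The windows starting at 1000001 and 2000001 came next, at 4.12% and 5.99% and at 4.20% and 5.41%. The last 0.54 Mb before the border, on the pericentric side, were covered to 1.27% and 1.41%.

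**Figure D4:**
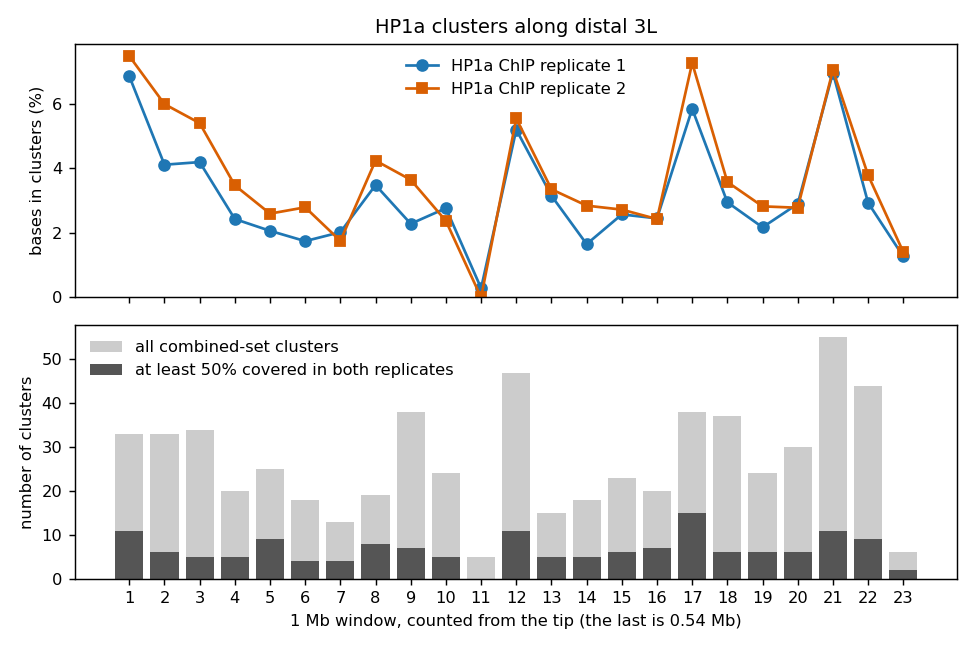
Share of bases in clusters (%) in each replicate (upper panel) and number of combined-set clusters (lower panel, with those held by both replicates in dark) in 1 Mb windows of distal 3L counted from the tip. Windows 1, 12, 17 and 21 exceed 5% in both replicates, and window 11 is almost empty.

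The window starting at 10000001 was the emptiest, with coverage of 0.285% in replicate 1 and 0% in replicate 2. It held 5 combined clusters, of 1135 to 1851 bp, none held by both replicates, 2 of which met replicate 1. It contained the second longest stretch without a cluster in any of the 3 lists, 437 kb from 10238079 to 10674805. The longest such stretch ran for 643 kb from 4460683 to 5103901. The next ran from 6599147 to 6957393 (358 kb), from 13029495 to 13371114 (342 kb) and from 13510815 to 13843107 (332 kb). Among the 10 highest-scored clusters held by both replicates, 2 had a gap of at least 100 kb to a neighbour, as did 99 of all 619 clusters. In all, 16 stretches of at least 200 kb made up 21.3% of distal 3L, against 28.7% of distal 2L, 29.2% of 3R, 13.8% of 2R and 7.78% of X. In a list of regions, unbound sequence cannot be told apart from sequence that reads could not be placed in.

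Clusters were also grouped by joining neighbours with at most 10 kb between them. This gave 339 groups, of which 211 were single clusters and 64 had 3 or more, and the latter held 280 of the 619 clusters (45.2%). The share held by both replicates was 54 of 211 in single clusters, 31 of 128 in pairs and 68 of 280 in the larger groups (25.6%, 24.2% and 24.3%). The 95% Wilson intervals were 20.2% to 31.9%, 17.6% to 32.3% and 19.6% to 29.6%, for counting error only, and the shares were not tested. The median gap between neighbours was 12.8 kb, against 9.83 kb on 2L, 13.5 kb on 3R, 7.08 kb on 2R and 5.16 kb on X.

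The group with the most covered bases ran from 2042016 to 2115934 and had 15 clusters over 50.2 kb. Replicate 1 covered 28.3% of its span in 7 clusters and replicate 2 covered 35.6% in 11, but they shared only 9.28 kb, a Jaccard index of 0.24. Of its 15 clusters, 2 were held by both replicates and 5 met neither. Its first 2 clusters, at 2042016 and 2044068, were covered to 100% and 91.0% in replicate 2 and had no base in replicate 1. Its high score, 1.67 at 2064566 to 2066704, belonged to a cluster that neither replicate had.

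The second group ran from 20431282 to 20534010 and had 18 clusters over 48.8 kb. Replicate 1 covered 29.0% of its span and replicate 2 covered 23.8%, and they shared 18.9 kb, a Jaccard index of 0.54. It contained the cluster at 20469898 with a score of 2.13, and 5 of its 18 clusters were held by both replicates. The clusters on both sides of the high-scored one were lower: those at 20448040, 20492664 and 20496932, also held by both, scored 0.64, 0.51 and 0.61. The long clusters at 20351596 (11.9 kb) and 20408680 (8705 bp, score 0.86) lay just distal to this group, outside it.

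The third group, from 11935088 to 11983442, had 10 clusters over 29.8 kb, 4 of them held by both replicates, and its replicates had a Jaccard index of 0.47. Its highest score was 1.14, in the cluster at 11962458 to 11966850, where replicates 1 and 2 scored 1.42 and 1.56. The fourth ran from 1229502 to 1255992, where 3 clusters over 24.9 kb filled 94.2% of the span. The replicates covered 50.0% and 48.8% of it with a Jaccard index of 0.66. The fifth ran from 17834672 to 17888092, with 9 clusters over 24.2 kb and a Jaccard index of 0.41. The 8 groups ranked above the tip cluster by covered bases had Jaccard indices of 0.24 to 0.87, and the tip cluster had 1.00. Those groups had 3 to 18 clusters each, whereas the tip cluster was alone. Other clusters that were alone came close to it, with 0.99 at 9434716 and 0.98 at 11085650 and at 14042410.

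At the border of the rule, the last clusters inside lay at 22259376 to 22261222 (score 0.09, replicate 2 only) and 22291440 to 22292440 (1001 bp, score 0.51, neither replicate). The last 251 kb before position 22543557 held no cluster in any list. The first clusters outside, at 22711194 to 22714186 and 22714262 to 22716820, scored 0.51 and 0.33 and each met a single replicate. The first one outside that was held by both began at 22754316 (5663 bp, score 1.56). The border thus fell in an empty stretch, and 95 further clusters of 3L lay beyond it.

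Beside the other distal arms, 3L was near the level of the other autosomal arms. Coverage was 3.62% and 3.80% on 2L, 2.45% and 3.07% on 3R, 4.67% and 5.51% on 2R and 7.23% and 10.5% on X, for replicates 1 and 2. Distal 3L had 0.92 times the coverage of the 3 other autosomal arms pooled in replicate 1 and 0.94 times in replicate 2, a mean of 0.93 ± 0.013 (SD, n = 2). With a border 1 Mb from the proximal ends, which takes in part of the dense pericentric sequence, the ratio was 1.15. With 2 replicates, an exact sign-flip permutation test cannot go below p = 0.5 (two-sided), so no test of these differences was made. The Jaccard index of the replicates was 0.49 on 3L, 0.50 on 3R and on X, 0.55 on 2R and 0.58 on 2L. The share of clusters held by both replicates was 24.7% on 3L, 26.8% on X, 29.1% on 3R, 30.0% on 2R and 32.2% on 2L. The 95% Wilson intervals were 21.5% to 28.3% on 3L and 27.4% to 30.6% on the other 4 arms pooled (29.0%). Overlap of such intervals is not a test, and neighbouring clusters are not independent. The share on 3L was the lowest of the 5 arms.

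**Figure D5:**
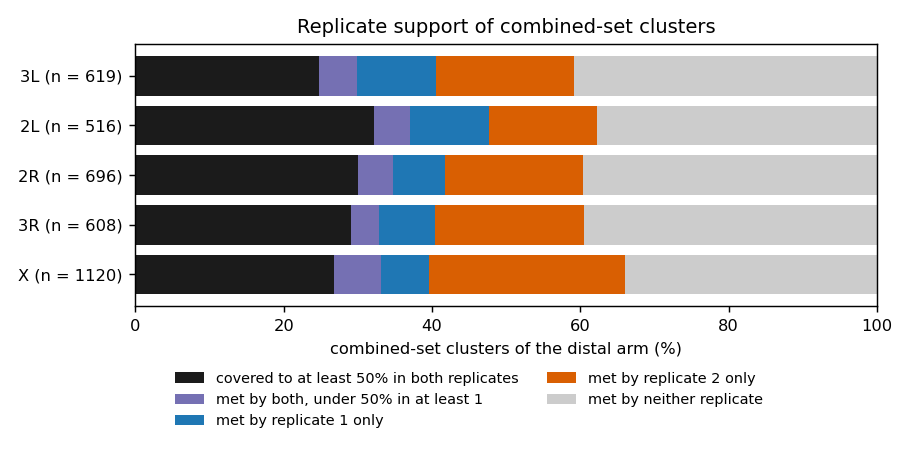
Share (%) of the combined-set clusters of each distal arm that were held by both replicates, met by both at under 50% in at least 1, met by a single replicate, or met by neither. Distal 3L has 24.7% held by both and 40.9% met by neither, and the 5 arms range from 24.7% to 32.2% in the former.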

How the data were processed

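HP1a ChIP-seq clusters from 2 ChIP libraries, each with 1 input, and the authors' combined set were used; nothing in the labels ties the replicates to separate collections of flies, so SDs may be technical. Coordinates are on FlyBase r5 per the file headers, and Bowtie 0.12.7 is named per the submitters' processing notes. The sources used here name no caller or threshold and no method of combining replicates. Each region was deposited by the authors with a score, used here for description and for ranking inside each list. Scores of different lists were also set side by side, although the lists are not known to share a scale. The region on 3L named as depleted was left out of all values but its own.

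Coverage, overlaps (at least 1 bp unless stated), Jaccard indices, windows, groups and correlations were computed with Python 3.11.15, numpy 2.4.6, pandas 2.3.3 and scipy 1.17.1, and drawn with matplotlib 3.10.9, after the functions were tested on simulated lists. No test was run. Regions named were the 10 longest, the 10 highest-scored, the 10 highest-scored held by both replicates, the first and last cluster, the 5 largest groups, the 5 longest empty stretches, and the longest clusters met by 1 or by no replicate. Short high-scored clusters met by replicate 1, clusters inside groups and those at the border were chosen after their values were seen. The arm and the rules were chosen with earlier results of these data known. Alternatives were other borders, score and length minimums, overlap thresholds, gaps and tip lengths, merging, and each replicate alone.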

Additional observations from a re-analysis of the deposited data

How the results depend on the processing

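Of 38 alternatives over 10 values, 20 held and 18 moved, and 1 of these, the ratio to the other autosomal arms, passed from below to above 1. A count held within 1.5 times, shares, the Jaccard index and rho within a 95% interval, and other values within 1 SD of the replicates. These intervals took clusters as independent, which they are not, and treated the Jaccard index as a share of merged clusters. They serve only as a yardstick. For coverage, tip coverage and the ratio, either replicate alone always lies within 1 SD of the mean of 2. Those alternatives could only hold. The 619 clusters became 124 when a score of at least the median of the combined set was required. The share held by both replicates, 24.7%, became 29.9% with 1 bp in each as the rule, 12.1% with 80%, 32.4% for clusters of at least 1301 bp and 64.5% with that minimum score. Asking for 50% in only 1 named replicate gave 36.2% (without replicate 2) to 45.4% (without replicate 1), higher by construction. Coverage of 3.47% became 0.40% when each list was cut at its own median score and 5.34% with the border at 1 Mb, which takes in part of the pericentric block; each replicate alone gave 3.18% to 3.76%. With that border the Jaccard index became 0.63 and the ratio to the other autosomal arms 1.15; each replicate alone gave 0.92 to 0.94. The median length became 3233 bp for clusters held by both and 1879 bp after merging those under 1000 bp apart. The median score became 0.63 and, for clusters of at least 1301 bp, 0.48, past an SD close to 0. The 64 groups of 3 or more became 3 with only clusters held by both. Coverage of the outermost 100 kb, 17.9% in either replicate alone, became 0% in the outermost 50 kb and 13.0% in 200 kb. No paired analysis was possible because the inputs had no region lists here. Depth is unknown, so a cluster missing from 1 replicate does not show absence of binding.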

Other observations

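The combined set named 2 regions as depleted, and 1 of them lay on distal 3L, at 2599082 to 2600564 (1483 bp, score -0.03). In replicate 2, 96.4% of the same bases lay in a cluster named as enriched, at 2599084 to 2600512, whose score of 0.04 was the lowest of all 4467 clusters of that replicate. Replicate 1 had no cluster there. The nearest combined cluster on the distal side, at 2585916 to 2588350, was held by both replicates with a score of 1.40 and ended 10.7 kb away, and that on the proximal side began 2.81 kb away.

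The lowest score of the whole combined set also lay on distal 3L, 0.035 at 8978510 to 8979954, where neither replicate had a cluster. Of the 10 combined-set clusters with a score under 0.1, 4 lay on distal 3L and 6 on the other distal arms. Distal 3L held 619 of the 3559 combined-set clusters on all distal arms, and the difference in share was not tested. None of the 4 was held by both replicates, but few low-scored clusters were. Of the 160 distal 3L clusters scoring up to 0.4, 15 were held by both (9.38%). At 10848826 to 10850676 the combined score was 0.040, whereas replicate 1 covered 79.8% of the cluster with a score of 0.35. At 22259376 to 22261222 it was 0.093, whereas replicate 2 covered 73.9% with a score of 0.34.

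Of the clusters met by a single replicate, the longest were at 18507856 to 18512918 (5063 bp), covered to 35.2% in replicate 2, at 9008048 to 9012950 (4903 bp), covered to 27.9% in replicate 1, and at 14747736 to 14752510 (4775 bp), covered to 30.7% in replicate 1. Next came 21343372 to 21348124 (4753 bp), where replicate 2 covered 84.7% with a score of 0.86, and 16584422 to 16588468 (4047 bp), where it covered 99.1% with a score of 0.64, while replicate 1 had no base in either.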
